A study of Homo sapiens with 12 samples.

Results

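The tropomyosin family of the human genome has 4 genes, TPM1, TPM2, TPM3 and TPM4, and all 4 were found among the 63541 genes of the deposited table and passed the filter that left 21999 genes for testing. The family was picked from measured values of these same libraries, because TPM4 was higher than in the scramble control with each of 3 siRNAs. The difference of TPM4 from scramble is therefore given as a description with no test, and tests were run on TPM1, TPM2 and TPM3 against scramble and on all 4 genes between the siRNAs.

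Expression was measured in HEK293T cells, a human embryonic kidney line that carries the SV40 large T antigen. Cells received 12.5 nM of a scramble siRNA or of si-snaR-A#1, si-snaR-A#2 or si-snaR-A#3, which target snaR-A, a short noncoding RNA made by RNA polymerase III. All 4 groups were transfected with the same lipid reagent, were collected after 48 h and had 3 replicates each, so that the 12 libraries differ by label only in the siRNA. The study asked how depletion of snaR-A affects mRNA, and it reports lower snaR-A by RT-qPCR with each of the 3 siRNAs. In these libraries snaR-A itself cannot be read, so the depth of the knockdown in each of them is not known here.

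Tropomyosins are rod-shaped coiled-coil proteins that lie end to end along the actin filament and decide which other proteins reach it. In striated muscle they work with troponin to switch contraction on and off. In other cells, different tropomyosins mark stress fibres, the cell cortex and other sets of filaments, where they favour myosin II and formins and hinder cofilin and the Arp2/3 complex. Each gene makes several proteins through alternative first exons, internal exons and last exons, and proteins such as PTBP1, RBFOX and MBNL factors and ESRP proteins are known to steer those choices.

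Gene positions are from GENCODE release 44 on GRCh38. TPM1 (ENSG00000140416) lies on the plus strand of chromosome 15 from 63042620 to 63071915, and TPM2 (ENSG00000198467) on the minus strand of chromosome 9 from 35681992 to 35690056. TPM3 (ENSG00000143549) lies on the minus strand of chromosome 1 from 154155308 to 154194648, and TPM4 (ENSG00000167460) on the plus strand of chromosome 19 from 16067021 to 16103002. The annotation lists 39 transcripts for TPM1, 10 for TPM2, 27 for TPM3 and 35 for TPM4. The deposited values are sums per gene, so they do not show which of these transcripts were present. Values are given in CPM, estimated counts scaled to library size with TMM factors, and a gene was called where the edgeR quasi-likelihood test gave an adjusted p under 0.05 over all genes tested.

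The sequences before the 3 starts of TPM4 in RefSeq (GRCh38.p14) are shown because TPM4 is the member whose level differed most between groups. Each is the part of the 250 bases before a start that lies outside the annotated exons of the gene, on the plus strand and 5′ to 3′. Capitals mark a CArG box, the site of serum response factor (SRF), and GC boxes, GGGCGG on either strand.
TPM4 upstream start, chr19:16067307-16067533: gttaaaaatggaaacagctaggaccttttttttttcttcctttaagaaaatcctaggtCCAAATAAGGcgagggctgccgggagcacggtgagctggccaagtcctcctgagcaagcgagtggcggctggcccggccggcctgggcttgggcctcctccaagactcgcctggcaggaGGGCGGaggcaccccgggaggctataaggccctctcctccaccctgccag
TPM4 middle start, chr19:16076245-16076438: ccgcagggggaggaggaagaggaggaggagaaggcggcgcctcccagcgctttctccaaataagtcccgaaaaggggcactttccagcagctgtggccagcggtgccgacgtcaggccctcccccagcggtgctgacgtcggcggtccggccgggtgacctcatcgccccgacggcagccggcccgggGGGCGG
TPM4 downstream start, chr19:16076766-16077015: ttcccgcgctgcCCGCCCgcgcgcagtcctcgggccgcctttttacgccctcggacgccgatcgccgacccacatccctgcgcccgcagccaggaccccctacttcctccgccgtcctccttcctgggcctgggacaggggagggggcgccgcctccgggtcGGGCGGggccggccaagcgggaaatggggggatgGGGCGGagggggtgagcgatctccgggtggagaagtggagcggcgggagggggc
The upstream sequence holds the CArG box, which begins 173 bases before that start, and no CArG box was found in the windows of the other starts of TPM4 or of TPM1, TPM2 and TPM3. Windows were searched on both strands from 250 bases before to 50 bases after a start, and 1.29% of the 35116 RefSeq windows of this length hold a CArG box. A GC box was found in all 8 windows of the 4 genes and in 45% of all windows. In these windows of TPM4 no CArG box overlapped a GC box. A match of letters is a description and not evidence that a factor binds there.

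Library totals ranged from 120.4 to 180.1 M counts, and mitochondrial genes took 3.66% to 6.05% of them. The summed level of 6 genes expressed in HEK293T cells (KRT8, KRT18, PAX2, EYA1, LIN28B and CDH2) was 398 to 421 CPM in scramble, 265 to 294 after si-snaR-A#1, 430.5 to 443 after si-snaR-A#2 and 351 to 357 after si-snaR-A#3. With the siRNAs averaged EYA1 was called higher and LIN28B and CDH2 lower, where 15.6% of all tested genes were called higher and 16.6% lower. However, CDH2 was called lower after si-snaR-A#1 (-0.60, edgeR adjusted p = 9.62e-07) and higher after si-snaR-A#3 (0.15, edgeR adjusted p = 0.0481). LIN28B was called lower after si-snaR-A#1 (-0.70, edgeR adjusted p = 1.04e-07) and si-snaR-A#3 (-0.62, edgeR adjusted p = 9.99e-07). After si-snaR-A#2 it was at 0.13 (edgeR adjusted p = 0.0528). Of 7 blood and endothelial markers, CD3E and HBB had at most 3 counts in every library, the sum of the 7 was 0.925 to 1.69 CPM, and edgeR called 0 of the 2 that were tested with the siRNAs averaged. The third replicate of si-snaR-A#1 stood apart from the other replicates of its group in 3 of the 4 tropomyosin genes, as described below. Tropomyosin results whose call changed without it are given with and without it.

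TPM4, which encodes a tropomyosin of nonmuscle cells, had 136, 131 and 146 CPM in the scramble libraries. It had 329, 325 and 296 CPM after si-snaR-A#1. After si-snaR-A#2 it had 399, 383 and 398 CPM, and after si-snaR-A#3 384, 389.9 and 389.7 CPM. All 9 siRNA libraries lay above all 3 scramble libraries, and the lowest of them was the third replicate of si-snaR-A#1. The group means were 138 ± 7.78 CPM in scramble, 317 ± 18.0 after si-snaR-A#1, 393 ± 8.63 after si-snaR-A#2 and 388 ± 3.38 after si-snaR-A#3 (SD, n = 3 each). Each value rests on many reads, since the estimated count of TPM4 was at least 16186 in every library. In RNA from whole cultures, more TPM4 mRNA per cell and more cells that make it cannot be told apart.

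**Figure D1:**
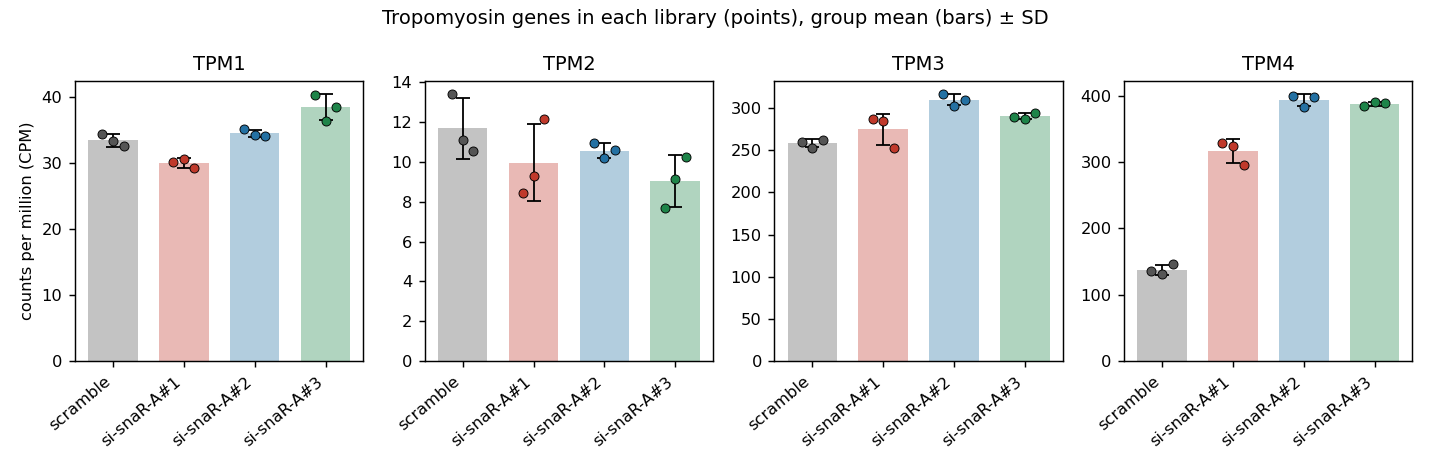
Levels of TPM1, TPM2, TPM3 and TPM4 in CPM in the 12 libraries (points), with the mean of each group (bar) and its SD (n = 3). Each panel has its own axis from 0. TPM4 lies at 131 to 146 CPM in scramble and at 296 to 399 CPM in the siRNA libraries, while the other genes shift far less.

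The fitted fold of TPM4 over scramble was 2.30 after si-snaR-A#1 (log2 fold change 1.20, SE 0.05), 2.86 after si-snaR-A#2 (1.51, SE 0.05) and 2.82 after si-snaR-A#3 (1.49, SE 0.05). Averaged, the siRNAs gave a log2 fold change of 1.40 (SE 0.04). Among the 10198 genes that averaged 10 CPM or more, the log2 fold change of TPM4 had rank 4 from the top for the second and the third siRNA and with all of them averaged, and rank 21 for si-snaR-A#1. These values chose the family and support nothing by themselves. The 3 comparisons also share their scramble libraries.

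Between the siRNAs, which the choice of the family did not use, TPM4 was lower after si-snaR-A#1 than after the other two. The log2 difference was -0.31 (SE 0.05, edgeR adjusted p = 0.000174) from si-snaR-A#2 and -0.29 (SE 0.05, edgeR adjusted p = 0.000288) from si-snaR-A#3, and the libraries did not overlap in either case. Leaving out any 1 library gave -0.347 to -0.285 and -0.323 to -0.248 in the same order. Both other siRNAs overlapped in TPM4 and differed by 0.02 (SE 0.05, edgeR adjusted p = 0.836). The order of TPM4 was thus si-snaR-A#2, si-snaR-A#3, si-snaR-A#1 and scramble, in which the first pair did not differ beyond the replicate spread.

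TPM3, which encodes tropomyosins of slow muscle fibres and the widely expressed short form of nonmuscle cells, had 259.7, 253 and 262 CPM in scramble. It had 287, 285 and 253 CPM after si-snaR-A#1, where the third replicate lay at the lowest scramble value and the other replicates above all scramble libraries. After si-snaR-A#2 it had 316, 303 and 309.7 CPM, and after si-snaR-A#3 289.7, 287 and 294 CPM. Every library of both other siRNAs was above every scramble library. TPM3 rose after si-snaR-A#2 by 0.26 on the log2 scale (SE 0.05, edgeR adjusted p = 0.00109) and after si-snaR-A#3 by 0.17 (SE 0.05, edgeR adjusted p = 0.0149). After si-snaR-A#1 the log2 fold change was 0.09 (SE 0.05, edgeR adjusted p = 0.138), and without the third replicate it was 0.14 (edgeR adjusted p = 0.00331). The rise after si-snaR-A#3 was not called without the second scramble replicate (0.16, edgeR adjusted p = 0.0585). With the siRNAs averaged TPM3 rose by 0.17 (SE 0.04, edgeR adjusted p = 0.00363). Between the siRNAs, TPM3 was lower after si-snaR-A#1 than after si-snaR-A#2 by 0.17 (SE 0.05, edgeR adjusted p = 0.00781), and the other pairs were not called. Without the third replicate of si-snaR-A#1 the fit also called si-snaR-A#2 higher than si-snaR-A#3 (0.11, edgeR adjusted p = 0.0222).

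TPM1, which encodes the striated muscle alpha chain and several long nonmuscle tropomyosins of stress fibres, moved in opposite directions with different siRNAs. It had 34.5, 33.3 and 32.6 CPM in scramble and 30.2, 30.7 and 29.3 CPM after si-snaR-A#1. It had 35.2, 34.3 and 34.2 CPM after si-snaR-A#2 and 40.4, 36.4 and 38.6 CPM after si-snaR-A#3. The si-snaR-A#1 libraries lay below all scramble libraries, those of si-snaR-A#3 above them, and those of si-snaR-A#2 overlapped them. TPM1 fell after si-snaR-A#1 by 0.16 on the log2 scale (SE 0.04, edgeR adjusted p = 0.0109) and rose after si-snaR-A#3 by 0.20 (SE 0.04, edgeR adjusted p = 0.00378). After si-snaR-A#2 its log2 fold change was 0.05 (SE 0.04, edgeR adjusted p = 0.486), and with the siRNAs averaged 0.03 (SE 0.04, edgeR adjusted p = 0.558). The direct test of si-snaR-A#1 against si-snaR-A#3 gave -0.36 (SE 0.04, edgeR adjusted p = 2.05e-05), and its test against si-snaR-A#2 gave -0.20 (SE 0.04, edgeR adjusted p = 0.002). The difference of si-snaR-A#2 from si-snaR-A#3 was -0.15 (SE 0.04, edgeR adjusted p = 0.0302), and this call was lost under 9 alternatives, 7 of which left out 1 library. Those libraries were the third scramble replicate, the second of si-snaR-A#1, all 3 of si-snaR-A#2, and the first and the third of si-snaR-A#3, and the edgeR adjusted p then reached at most 0.119.

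TPM2, which encodes the beta chain of striated and smooth muscle, had the fewest counts of the 4 genes and the widest spread between replicates. It had 13.4, 11.1 and 10.53 CPM in scramble and 8.43, 9.30 and 12.1 CPM after si-snaR-A#1. It had 10.9, 10.2 and 10.6 CPM after si-snaR-A#2 and 7.68, 9.15 and 10.3 CPM after si-snaR-A#3. The libraries of si-snaR-A#3 lay just below all scramble libraries, and the other groups overlapped scramble. TPM2 passed the edgeR quasi-likelihood test in 0 of 7 comparisons, and in 2 of them the p before adjustment was under 0.05. DESeq2 called 1 of the 7. Its log2 fold change against scramble was -0.23 after si-snaR-A#1 (SE 0.14, edgeR adjusted p = 0.197), -0.14 after si-snaR-A#2 (SE 0.14, adjusted p = 0.498) and -0.37 after si-snaR-A#3 (SE 0.14, adjusted p = 0.0603). The value for si-snaR-A#3 passed the threshold under 5 settings other than leaving out a library, among them DESeq2 (-0.36, adjusted p = 0.0212) and the edgeR exact test that the study names (-0.37, adjusted p = 0.0499). It also passed without the first or the third replicate of si-snaR-A#1 or the third of si-snaR-A#3. With the siRNAs averaged TPM2 was at -0.25 (SE 0.11, edgeR adjusted p = 0.108). Without the third replicate of si-snaR-A#1, the average was -0.30 (edgeR adjusted p = 0.021) and the difference of si-snaR-A#1 itself -0.40 (edgeR adjusted p = 0.0198). The spread between replicates, as a share of the mean, was 3.64% to 19.4% for TPM2 in the 4 groups, against 0.872% to 6.81% for TPM1, TPM3 and TPM4.

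**Figure D2:**
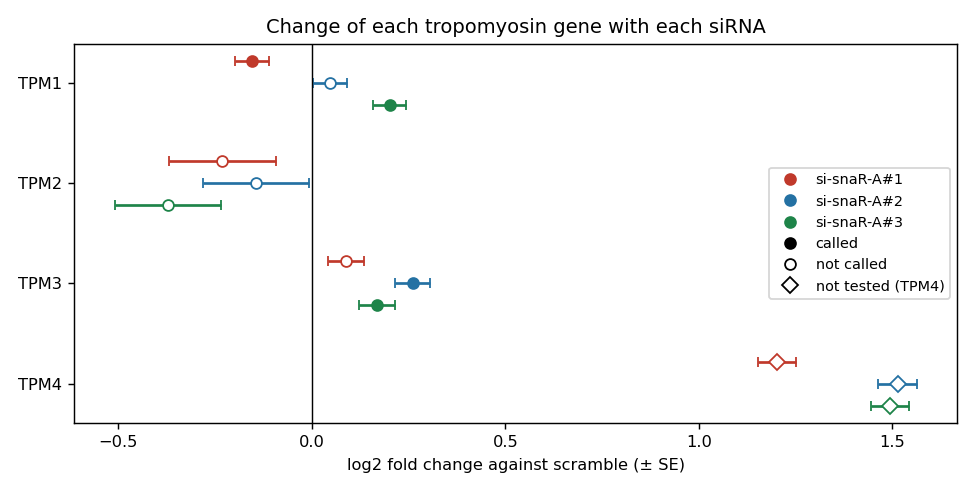
Log2 fold change of each tropomyosin gene against scramble with each siRNA, with its standard error. Filled circles were called at an adjusted p under 0.05, open circles were not, and the open diamonds of TPM4 were not tested because they chose the family. TPM4 lies between 1.20 and 1.51, and the other genes lie between -0.37 and 0.26.

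The calls on the tropomyosins are set here beside the share of all tested genes called in each comparison. After si-snaR-A#1, 1 of the 3 genes TPM1, TPM2 and TPM3 was called lower and 0 higher, while 23.3% of all tested genes were called lower and 21.9% higher. After si-snaR-A#2, 1 of the 3 was called higher and 0 lower, against 13.7% higher and 12.1% lower over all genes. After si-snaR-A#3, 2 of the 3 were called higher and 0 lower, against 16.5% higher and 13% lower. With the siRNAs averaged, 1 of the 3 was called higher and 0 lower, against 15.6% higher and 16.6% lower. For si-snaR-A#1 against si-snaR-A#2, 3 of the 4 tropomyosin genes were called lower after si-snaR-A#1 and 0 higher, where 23% of all genes were called lower and 23.7% higher. For si-snaR-A#1 against si-snaR-A#3, 2 of 4 were called lower after si-snaR-A#1, TPM1 and TPM4, against 24.8% lower and 23.8% higher over all genes. For si-snaR-A#2 against si-snaR-A#3, 1 of 4, TPM1, was called lower after si-snaR-A#2, against 9.03% lower and 6.52% higher. The change of TPM1, TPM2 and TPM3 in either direction was at most 0.37 on the log2 scale in each comparison with scramble.

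The make-up of the family shifted towards TPM4. To compare genes, levels were divided by the length of the merged exons of each gene. In scramble TPM3 had the highest level, 17.1 ± 0.309 CPM per kb, followed by TPM4 with 11.1 ± 0.629, TPM2 with 3.67 ± 0.474 and TPM1 with 2.28 ± 0.0635 (SD, n = 3 each). With each siRNA TPM4 came first, at 25.6 ± 1.45 CPM per kb after si-snaR-A#1, 31.8 ± 0.698 after si-snaR-A#2 and 31.3 ± 0.273 after si-snaR-A#3. TPM3 came second with 18.2 ± 1.24, 20.5 ± 0.435 and 19.2 ± 0.249 CPM per kb. No library of TPM4 overlapped one of TPM3 within a group. TPM1 and TPM2 stayed far below them, and after si-snaR-A#3 their ranges met, at 2.48 to 2.75 CPM per kb for TPM1 and 2.41 to 3.23 for TPM2. The length matters for the order: with the length of the canonical transcript TPM4 was already first in scramble (55.7 ± 3.15 CPM per kb, against 36.6 ± 0.661 for TPM3), whereas with the coding length TPM3 was first there (190.4 ± 3.44 against 98.5 ± 5.57). In the siRNA groups TPM4 came first by all 3 lengths, and TPM1 and TPM2 changed places with each other in every group by both other lengths.

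TPM4 made up 32.6% ± 1.28 of the summed level per kb of the 4 genes in scramble, 52.3% ± 0.739 after si-snaR-A#1, 54.9% ± 0.246 after si-snaR-A#2 and 56.0% ± 0.506 after si-snaR-A#3. The share of TPM3 was 50.02% ± 0.605 in scramble and 37.1% ± 0.934, 35.3% ± 0.162 and 34.3% ± 0.322 with the 3 siRNAs in the same order. In si-snaR-A#1 the third replicate, which had the lowest TPM3 and TPM4, still gave TPM4 a share of 51.5%. Summed over the 4 genes, the level was 441 ± 11.8 CPM in scramble, 632 ± 35.4 after si-snaR-A#1, 748 ± 15.6 after si-snaR-A#2 and 726 ± 6.25 after si-snaR-A#3. Without TPM4 the sum was 304 ± 5.22, 315 ± 17.5, 355 ± 7.40 and 338 ± 5.38 CPM. Sums and shares contain the gene that chose the family and were not tested.

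**Figure D3:**
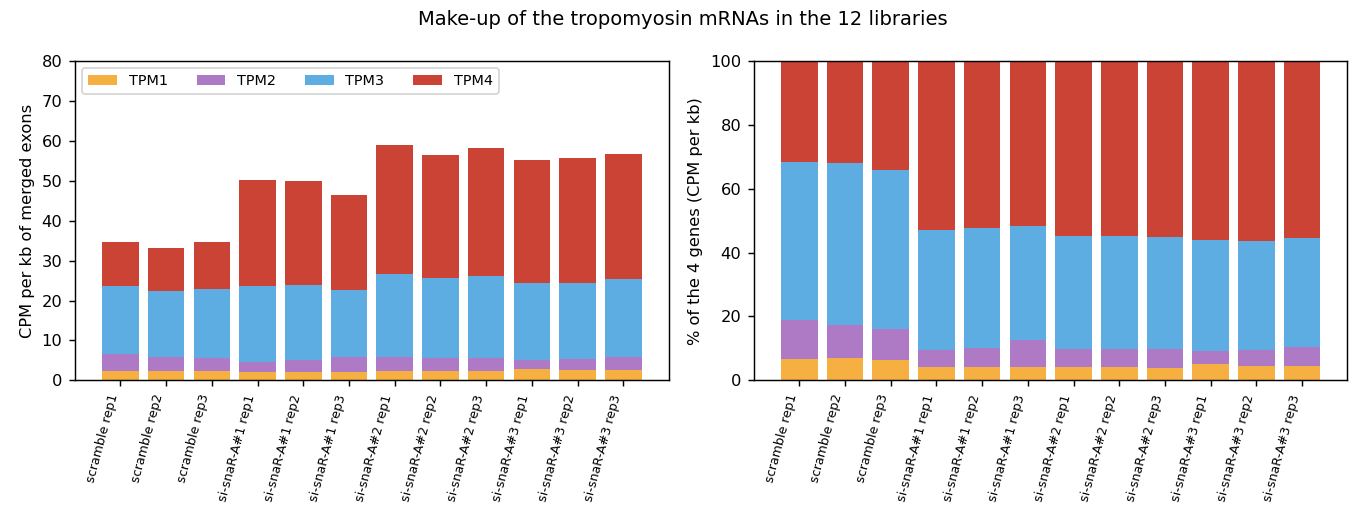
Level per kb of merged exons of the 4 tropomyosin genes in each library (left) and the share of each gene in their sum (right, in percent). The TPM4 part is 31.7% to 34.1% in the scramble libraries and 51.5% to 56.4% in the siRNA libraries.

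Reads that a tropomyosin gene shares with another gene could move its value, so the other rows were examined. The table holds 13 rows named as tropomyosin pseudogenes or antisense genes, and 4 of them had over 3 counts in some library. TPM3P9 had an estimated count of 54.2 and TPM4P2 one of 36.3 in the third replicate of si-snaR-A#1 alone, and both were listed at 0 in the other 11 libraries. In that same library TPM3 and TPM4 had estimated counts of 34420 and 40262, so these rows were small beside them. TPM3P6 had at most 8.68 counts. TPM1-AS, an antisense RNA that covers 2645 bases of TPM1 exons, had at most 9.93 counts, and the 2 other overlapping genes with a row, ENSG00000259627 and RN7SL431P, were listed at 0 in all libraries. TPM4 exons also overlap ENSG00000279198 by 803 bases on the opposite strand, which has no row in the table as it was read here. Whether the assignment used strand is not stated.

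The genes whose levels followed each member most closely were found by Pearson correlation of log2 CPM over the 12 libraries, among the same 10198 genes. The 12 points form 4 groups of 3 and share their library scaling, so the correlations are a description. For TPM4 they included TBC1D10B, a GTPase-activating protein for Rab GTPases (r = 0.995), ENC1, an actin-binding Kelch protein (r = 0.994), POLR2D, a subunit of RNA polymerase II (r = 0.992), and G3BP2, a stress granule protein (r = 0.992). The level of G3BP2 was 139 ± 1.91 CPM in scramble, 311 ± 18.2 after si-snaR-A#1, 449 ± 5.34 after si-snaR-A#2 and 447 ± 4.78 after si-snaR-A#3 (SD, n = 3 each). ENC1 differed far less, from 10.4 ± 0.211 CPM to 13.8 ± 0.0612, 14.7 ± 0.290 and 14.6 ± 0.138 CPM, so a pattern can be alike where its size is not.

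**Figure D4:**
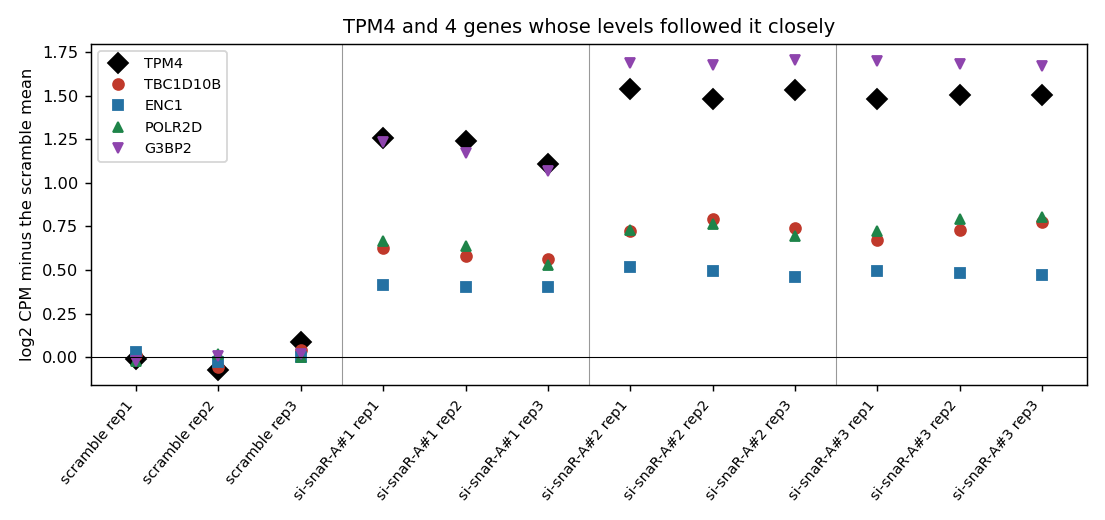
Log2 CPM of TPM4 and of 4 of the genes most correlated with it in each library, less the mean of each gene in scramble. All 5 genes are above 0 in all 9 siRNA libraries and have their lowest siRNA mean after si-snaR-A#1, and ENC1 shows the smallest differences.

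The genes most like TPM3 were AKIRIN1, a nuclear cofactor of transcription (r = 0.958), APP, the amyloid precursor protein (r = 0.958), and MCM3, a subunit of the replicative helicase (r = 0.957). Those most like TPM1 were SMC6, of the SMC5/6 complex (r = 0.964), AKTIP (r = 0.962) and CCNYL1, a cyclin Y relative (r = 0.958). Like TPM1, SMC6 was lowest after si-snaR-A#1, at 98.3 ± 4.08 CPM, and highest after si-snaR-A#3, at 125 ± 4.35 CPM, with 107 ± 1.96 CPM in scramble. For TPM2 they were CCNL2, a cyclin of nuclear speckles (r = 0.952), PHKA2, a subunit of phosphorylase kinase (r = 0.940), and SLC26A6, an anion exchanger (r = 0.928). CCNL2 varied within groups as TPM2 did, with 129 ± 13.7 CPM in scramble, 116 ± 19.5 after si-snaR-A#1, 114 ± 2.09 after si-snaR-A#2 and 107 ± 10.8 after si-snaR-A#3.

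The filament that tropomyosin coats is built of actin, and of 6 actin genes 4 were tested. With the siRNAs averaged, 2 were called higher and 0 lower, where 15.6% of all tested genes were called higher and 16.6% lower. The median log2 fold change of the 4 was 0.12, against -0.04 over all tested genes. ACTB, the beta actin of all cells, had 1073 ± 30.2 CPM in scramble and 1452 ± 92.6, 1471 ± 88.5 and 1591 ± 24.9 CPM after si-snaR-A#1 to #3, a rise of 0.49 (SE 0.05, edgeR adjusted p = 6.17e-06). ACTG1, the other actin of nonmuscle cells, had 1829 ± 126 CPM in scramble and was called lower after si-snaR-A#1, at 1273 ± 95.4 CPM (-0.52, SE 0.07, edgeR adjusted p = 2.77e-05). After si-snaR-A#2 it had 1849 ± 57.8 and after si-snaR-A#3 1939 ± 104 CPM, neither of which was called. ACTA2, of smooth muscle, rose on average by 0.37 (SE 0.10, edgeR adjusted p = 0.0123) from a level of 1.92 ± 0.239 CPM. After si-snaR-A#1 ACTA2 was not called (0.05, edgeR adjusted p = 0.762). Reads of the near-identical actin coding sequences may be shared. Without the second scramble replicate 1 of the 4 was called higher, and with upper quartile scaling 2 were called lower.

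Among the proteins that cap tropomyosin-coated filaments or bind beside tropomyosin, 3 of 10 tested genes were called higher and 2 lower with the siRNAs averaged, against 15.6% and 16.6% of all genes (median 0.05). LMOD1, a leiomodin, rose by 0.20 (SE 0.05, edgeR adjusted p = 0.0101) and was called after si-snaR-A#3 alone. TMOD1, a tropomodulin, rose on average by 0.12 (SE 0.04, edgeR adjusted p = 0.043), but it rose after si-snaR-A#1 (0.54, edgeR adjusted p = 1.88e-06), fell after si-snaR-A#2 (-0.18, edgeR adjusted p = 0.0195) and was at -0.01 after si-snaR-A#3 (edgeR adjusted p = 0.91). CNN2, a calponin, fell by 0.31 (SE 0.04, edgeR adjusted p = 9.93e-05), and its level was 42.3 ± 2.39 CPM in scramble and 23.1 ± 0.989 CPM after si-snaR-A#3. It was not called after si-snaR-A#1 (-0.12, edgeR adjusted p = 0.0808) or si-snaR-A#2 (0.06, edgeR adjusted p = 0.435). Of the 3 higher calls 1 was left without the filter on low counts and without the first scramble replicate, and 0 without the second.

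Myosin II is the motor that pulls on tropomyosin-coated filaments. With its kinases and phosphatase, it had 7 of 11 tested genes called higher and 3 lower with the siRNAs averaged (median 0.22). The shares over all genes were 15.6% and 16.6%. After si-snaR-A#1, 4 were called higher and 4 lower (median 0.01), against 21.9% and 23.3% of all genes. The counts were 6 and 1 after si-snaR-A#2, against 13.7% and 12.1%, and 6 and 2 after si-snaR-A#3, against 16.5% and 13%. MYH9, a nonmuscle heavy chain, had 153 ± 8.10 CPM in scramble and 317 ± 7.55, 229 ± 6.52 and 184 ± 19.6 CPM after si-snaR-A#1 to #3, a mean rise of 0.63 (SE 0.06, edgeR adjusted p = 3.81e-06). Unlike TPM4, it was highest after si-snaR-A#1. ROCK2, a kinase that activates myosin II, rose by 0.48 (SE 0.05, edgeR adjusted p = 1.73e-05), and MYL12B, a regulatory light chain, fell by 0.28 (SE 0.04, edgeR adjusted p = 0.000239). PPP1R12A, the targeting subunit of myosin phosphatase, fell on average by 0.31 (SE 0.04, edgeR adjusted p = 2.66e-05). It was called lower after si-snaR-A#1 (-0.32, edgeR adjusted p = 6.15e-05) and si-snaR-A#3 (-0.71, edgeR adjusted p = 2.36e-07). After si-snaR-A#2 it was at 0.11 (edgeR adjusted p = 0.0968).

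Formins, which elongate the unbranched filaments that tropomyosins coat, had 5 of 13 tested genes called higher and 0 lower with the siRNAs averaged, where all genes gave 15.6% and 16.6% (median 0.13). After si-snaR-A#1, 9 were called higher and 1 lower, against 21.9% and 23.3% of all genes. The counts were 5 and 1 after si-snaR-A#2, against 13.7% and 12.1%, and 6 and 1 after si-snaR-A#3, against 16.5% and 13%. The formin called lower was DIAPH3 after si-snaR-A#1 (-0.31, edgeR adjusted p = 0.000298) and FHOD3 after si-snaR-A#2 (-0.39, edgeR adjusted p = 0.000364) and si-snaR-A#3 (-0.18, edgeR adjusted p = 0.0415). DIAPH3 was called higher after the other two siRNAs, and FHOD3 after si-snaR-A#1. DIAPH1 rose by 0.55 (SE 0.03, edgeR adjusted p = 4.94e-08), from 168 ± 3.72 CPM in scramble to 350.1 ± 2.13 CPM after si-snaR-A#1, 198 ± 3.92 after si-snaR-A#2 and 214 ± 4.20 after si-snaR-A#3. FMNL3 rose by 0.38 (SE 0.05, edgeR adjusted p = 6.14e-05).

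The Arp2/3 complex, which makes branched filaments and is hindered by many tropomyosins, had 1 of 9 genes called higher and 4 lower with the siRNAs averaged, next to 15.6% and 16.6% of all genes (median -0.10). After si-snaR-A#1, 7 of the 9 were called lower and 2 higher, against 23.3% and 21.9% of all genes. After si-snaR-A#2, edgeR called 0 in either direction, against 12.1% lower and 13.7% higher, and after si-snaR-A#3 1 was called lower, against 13%. ACTR3, an actin-related subunit, had 249 ± 9.06 CPM in scramble, 93.8 ± 7.31 after si-snaR-A#1, 259 ± 11.4 after si-snaR-A#2 and 269 ± 2.69 after si-snaR-A#3. Its mean change was -0.41 (SE 0.04, edgeR adjusted p = 1.24e-05) and that of ARPC5 -0.33 (SE 0.05, edgeR adjusted p = 0.000161). ARPC5 was not called after si-snaR-A#2 (-0.09, edgeR adjusted p = 0.296). ARPC1B rose on average by 0.17 (SE 0.06, edgeR adjusted p = 0.0314) and was called after si-snaR-A#1 alone (0.37, edgeR adjusted p = 0.00054). It was at 0.12 after si-snaR-A#2 (edgeR adjusted p = 0.221) and 0.02 after si-snaR-A#3 (edgeR adjusted p = 0.859). The averaged call was lost with upper quartile scaling and without any 1 of 5 libraries, among them the first and the second scramble replicate. Cofilins, gelsolin, profilins and capping protein had 0 of 9 called higher and 2 lower with the siRNAs averaged, to be read beside 15.6% and 16.6% of all genes (median -0.06). They had 0 higher and 6 lower after si-snaR-A#1, against 21.9% and 23.3% of all genes. After si-snaR-A#2 they had 1 and 1, against 13.7% and 12.1%, and after si-snaR-A#3 2 and 2, against 16.5% and 13%. GSN, gelsolin, changed by -0.38 on average (SE 0.06, edgeR adjusted p = 0.000484) and was called lower after each siRNA. PFN2, a profilin, changed by -0.20 on average (SE 0.04, edgeR adjusted p = 0.00303), but it was called lower after si-snaR-A#1 (-0.89, edgeR adjusted p = 5.56e-08) and higher after si-snaR-A#2 (0.17, edgeR adjusted p = 0.0323). With upper quartile scaling 4 of these 9 were called lower.

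Crosslinkers and focal adhesion proteins had 6 of 15 tested genes called higher and 4 lower with the siRNAs averaged, beside shares of 15.6% and 16.6% over all genes (median 0.06). On average FLNA, a filamin, rose by 0.30 (SE 0.04, edgeR adjusted p = 0.000224) and TLN1, a talin, by 0.28 (SE 0.06, edgeR adjusted p = 0.00209). TLN2 fell by 0.68 (SE 0.11, edgeR adjusted p = 0.000462) and LASP1 by 0.35 (SE 0.04, edgeR adjusted p = 1.27e-05). After si-snaR-A#3, FLNA (0.05, edgeR adjusted p = 0.566) and TLN1 (0.13, edgeR adjusted p = 0.171) were not called. After si-snaR-A#2, TLN2 (-0.05, edgeR adjusted p = 0.857) and LASP1 (-0.03, edgeR adjusted p = 0.682) were not called. Without the first scramble replicate 3 of the 15 were called higher.

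**Figure D5:**
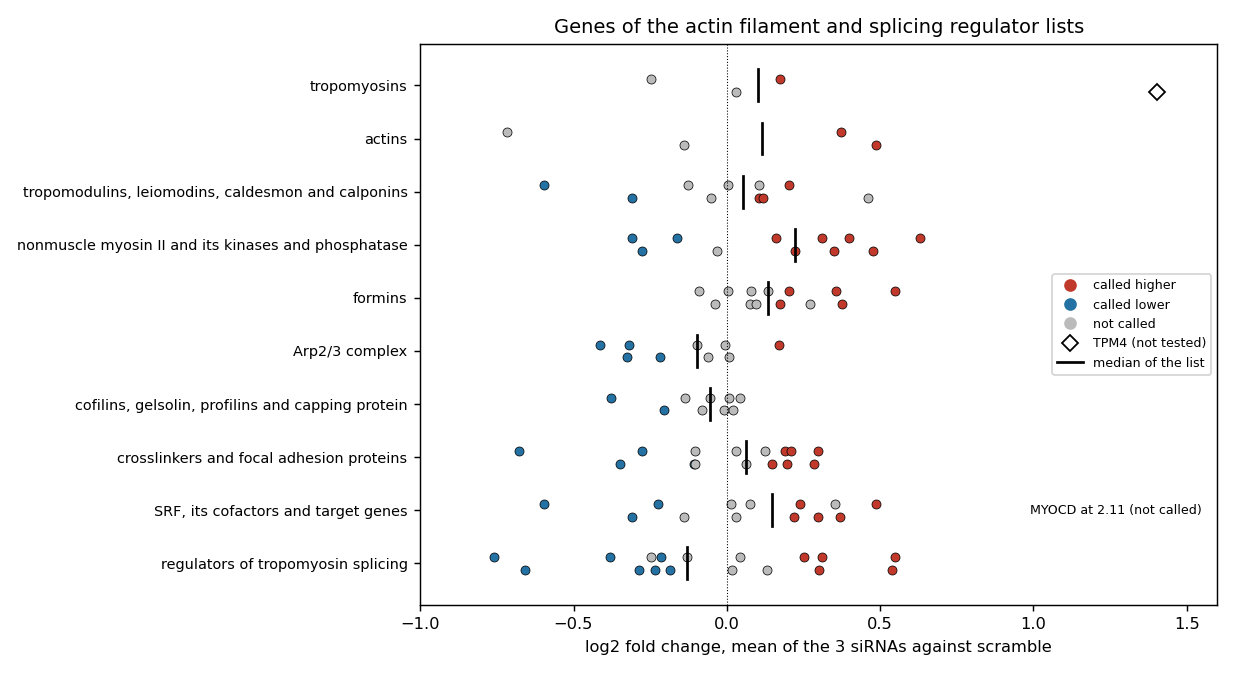
Log2 fold change for the average of the 3 siRNAs against scramble of the tested genes of each list, with the median of the list as a vertical line. Red points were called higher, blue points lower and grey points not called, and the open diamond is TPM4, which was not tested. TPM4, at 1.40, lies to the right of all other points except MYOCD, which is written at the margin and was not called.

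SRF controls many genes of the actin cytoskeleton, and its MRTF cofactors are held back by free actin. The list of SRF, its cofactors and target genes shares ACTB, ACTG1, VCL, CNN1, CNN2, FLNA and MYL9 with the lists above. Of its 14 tested genes 5 were called higher and 3 lower with the siRNAs averaged, against 15.6% and 16.6% of all genes (median 0.15). SRF had 39.96 ± 1.41 CPM in scramble and 61.8 ± 4.11, 47.9 ± 2.44 and 46.5 ± 0.356 CPM after si-snaR-A#1 to #3, a mean rise of 0.37 (SE 0.04, edgeR adjusted p = 3.14e-05). Its cofactor MRTFA rose on average by 0.22 (SE 0.05, edgeR adjusted p = 0.00254), and MRTFB was at 0.01 (SE 0.08, edgeR adjusted p = 0.917). After si-snaR-A#2, MRTFA was not called (0.14, edgeR adjusted p = 0.0814). TGFB1I1 fell on average by 0.22 (SE 0.08, edgeR adjusted p = 0.0466) and was called after si-snaR-A#2 alone (-0.37, edgeR adjusted p = 0.0142). Without the third scramble replicate 1 gene of the list was called lower. Beside TPM4, 12 genes of the actin filament, SRF and splicing lists hold a CArG box in a RefSeq start window. With the siRNAs averaged, 5 of the 10 of these that were tested were called higher (FHL2, FLNA, MYLK, ROCK2 and SRF) and 2 lower (CNN2 and TGFB1I1), with a median of 0.07. Of the 76 tested genes of the same lists whose windows hold no such box, 24 were called higher and 19 lower, with a median of 0.01. The other 10 tested genes of these lists had no window to search.

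Proteins known to steer the splicing of tropomyosin exons were examined because sums per gene do not show that splicing. Of 17 tested genes, 5 were called higher and 7 lower with the siRNAs averaged, against 15.6% and 16.6% of all genes (median -0.13). PTBP1, a repressor of regulated tropomyosin exons, had 441 ± 15.6 CPM in scramble and 529.96 ± 16.0, 532 ± 11.5 and 513 ± 12.6 CPM after si-snaR-A#1 to #3, and rose by 0.25 (SE 0.03, edgeR adjusted p = 8.49e-05). RBFOX2 went in different directions, with 193 ± 1.89 CPM in scramble, 159.6 ± 2.502 after si-snaR-A#1, 231 ± 4.37 after si-snaR-A#2 and 119.8 ± 4.62 after si-snaR-A#3, and each of these differences was called. MBNL1, a muscleblind protein, rose by 0.55 (SE 0.05, edgeR adjusted p = 7.66e-06) and ESRP2, an epithelial splicing regulator, by 0.54 (SE 0.13, edgeR adjusted p = 0.00573) from 1.02 ± 0.169 CPM. ESRP2 was not called after si-snaR-A#3 (0.31, edgeR adjusted p = 0.144). CELF2 fell by 0.76 (SE 0.05, edgeR adjusted p = 1.54e-07), with lower levels in all 9 siRNA libraries, and RBM24, a regulator of muscle splicing, fell by 0.66 (SE 0.06, edgeR adjusted p = 4.76e-06).

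Most partners of the tropomyosins of muscle had low levels, and TNNT1 and TNNI3 were the exceptions. The summed level of 14 muscle markers, troponins among them, was 21.02 to 22.04 CPM in scramble, 18.70 to 19.58 after si-snaR-A#1, 17.78 to 20.04 after si-snaR-A#2 and 22.05 to 23.76 after si-snaR-A#3, and TNNT1, of slow muscle troponin, gave 12.8 to 16.1 CPM and TNNI3, of cardiac troponin, 3.29 to 4.51 CPM of it in the group means. Each of the other 12 averaged under 1 CPM. TNNT3, of fast muscle troponin, had at most 3 counts in every library. With the siRNAs averaged, the edgeR quasi-likelihood test called 0 of 10 tested markers higher and 1 lower, against 15.6% and 16.6% of all genes. With DESeq2 0 were called lower. In the edgeR test of si-snaR-A#1 the counts were 0 and 1, against 21.9% and 23.3%. For si-snaR-A#2 they were 0 and 2, against 13.7% and 12.1%, and for si-snaR-A#3 1 and 0, against 16.5% and 13%.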

How the data were processed

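Processed data from RNA-seq of 12 HEK293T libraries were used, 3 for each of 4 siRNA groups. Per the labels and the study's methods, RNA was depleted of rRNA, enriched for poly(A)+ RNA and made into stranded libraries, and the authors trimmed reads with Trim Galore and quantified them with Salmon. They deposited estimated counts per Ensembl gene on hg38, not scaled to library size. Which transcriptome release was used, how transcripts were summed and whether strand was used are not given in the sources used here. No positive value was whole, yet 77.8% of values from 0.5 to 1.5 were close to 1 (by less than 0.05), so the estimated counts may have been rescaled by length and are not exact read counts.

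Estimated counts were rounded, and genes were kept with filterByExpr, which left 21999 of 63541 genes. They were scaled with TMM factors (0.956 to 1.09) and tested in 1 fit of all 12 libraries with the quasi-likelihood test of edgeR 4.0.16 (R 4.3.3), with Benjamini-Hochberg adjustment over all genes tested and a threshold of 0.05. SE was taken as the size of the log2 fold change over the root of F. Alternatives were RLE and upper quartile scaling, other filters, DESeq2 1.42.0, the edgeR exact test, a replicate block, fits of only the groups compared, and leaving out each library. The code was tested on simulated data. Replicates differed by more than counting error (chi-square per degree of freedom 13.0 to 63.0). The study calls them biological replicates and names 1 processing day, and the labels give no batch. The median log2 fold change of all tested genes was -0.04 with the siRNAs averaged.

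The family, the lists and the tests were chosen with earlier results of these data known. Named genes were the 4 tropomyosins, the 2 genes with the greatest rise and the 2 with the greatest fall per list (siRNAs averaged, called, at least 1 CPM), PTBP1, RBFOX2, SRF, MRTFA and MRTFB, the 5 (TPM4) or 3 (other members) genes with the highest correlation, and pseudogenes, antisense and overlapping genes. The 12 lists beside the tropomyosins, of which 9 hold genes of the actin filament, SRF or splicing regulators, were described by counts and medians, with no set test. Other genes are named as carriers of a CArG box or as the markers that a list holds. ACTG1, DIAPH3, FHOD3, EYA1, LIN28B, CDH2, TNNT1 and TNNI3 were named after their values were seen. Promoter windows are from RefSeq. 1 gene that the naming rule would include is not reported here. siRNA sequences were not used here.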

Additional observations from a re-analysis of the deposited data

Results flagged for a closer look

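TPM3P9 and TPM4P2, pseudogenes of TPM3 and TPM4 that the comparisons above do not use, had estimated counts of 54.2 and 36.3 in the third replicate of si-snaR-A#1. Both were listed at 0 in the 3 scramble libraries and in the other 8 libraries, and a count of 0 allows up to 3 counts. The same library had the lowest TPM3 (253 CPM) and TPM4 (296 CPM) and the highest TPM2 (12.1 CPM) of its group. The part of shared reads in these values was not tested.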

How the results depend on the processing

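No change against scramble or between siRNAs of a tropomyosin gene that passed the threshold turned its sign under any alternative. Of 474 recomputed fold changes with a test, 450 stayed on the same side of the threshold, 10 lost it and 14 gained it. Of 78 of TPM4 against scramble, which had no test, 1 moved by more than the replicate spread. TPM1 in si-snaR-A#2 against si-snaR-A#3 was not called without the filter (-0.15, edgeR adjusted p = 0.0602). It was not called with only the groups compared (-0.15, edgeR adjusted p = 0.0599) either, and ranged from -0.19 to -0.12 when 1 library was left out. TPM2 with si-snaR-A#3 was called with upper quartile scaling (-0.42), without the filter (-0.37), with a mean of at least 1 CPM (-0.40), with DESeq2 (-0.36) and with the edgeR exact test (-0.37). With a mean of at least 1 CPM, TPM3 passed both in si-snaR-A#1 against scramble (0.11) and in si-snaR-A#2 against si-snaR-A#3 (0.11). In the last case, and for TPM1 above, the cause was not tested.

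Leaving out 1 library gave -0.47 to -0.26 for TPM2 with si-snaR-A#3, -0.40 to -0.12 with si-snaR-A#1 and -0.31 to -0.14 with the siRNAs averaged. It gave 0.057 to 0.144 for TPM3 with si-snaR-A#1, 0.155 to 0.184 with si-snaR-A#3 and 0.077 to 0.109 for si-snaR-A#2 against si-snaR-A#3, and 1.48 to 1.58 for TPM4 with si-snaR-A#2. The count of genes called for si-snaR-A#2 against si-snaR-A#3, 3421 in all, was 2215 to 3830, the lowest without the second replicate of si-snaR-A#2. Of 360 recomputed list counts with the siRNAs averaged, 28 moved by over 1.5 times.

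Replicate numbers did not pair the libraries, since 5 of 18 same-numbered pairs correlated above 0.1, as did 7 of 36 others. With a replicate block 6801 genes were called with the siRNAs averaged in place of 7087, and no call on a tropomyosin gene changed. TPM2, with the fewest counts, had the widest replicate spread, and sums per gene hide shifts between transcripts.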
